A study of Mus musculus with 35 samples.

Results

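The stroma of the mouse mammary gland was compared after 1 completed reproductive cycle and without one. The comparison rests on the 6 samples labelled as stromal cells, of 35 arrays in the whole series, and every gene with a probe set of its own was tested, 19937 in all. In the parous group, mating took place at an age of 42 days, and 21 days of lactation were followed by 40 days of involution, the regression of the milk-producing tissue after weaning. Nulliparous mice were virgins of matched age. Each sample held the 4th mammary glands of 5 mice, digested to single cells and sorted by flow cytometry, with RNA of 10000 stromal cells amplified for 1 array. There were 3 parous and 3 nulliparous stromal samples, so the samples are pools of animals and not single mice. The other samples are total epithelial, luminal Sca1-, luminal Sca1+, basal CD49f-low and basal CD49f-high cells of the same 2 histories, and the same contrast in them is given where it bears on the stroma. The labels state neither a strain nor the surface markers that defined the stromal sort, and no treatment or allele distinguishes the groups beyond reproductive history.

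Mammary stroma is the connective and fatty tissue in which the epithelial ducts grow. Its fibroblasts lay down collagens, microfibrils and proteoglycans and send growth factors to the epithelium, while vessels, nerves and immune cells run through it. Pregnancy, lactation and involution remodel this tissue: matrix is degraded and rebuilt, and immune cells enter during involution. In bulk RNA from sorted pools, fewer cells of a type and less RNA per cell cannot be told apart.

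The stromal label was checked against 3 fibroblast genes. Decorin (Dcn), a collagen-binding proteoglycan, had log2 values of 12.63, 12.49 and 12.55 in the parous samples and 12.51, 12.50 and 12.55 in the nulliparous ones. Its mean over the stromal samples was 12.54, against 8.75 to 10.64 in the 5 epithelial subpopulations. The type III collagen gene Col3a1 averaged 9.27 in stroma and 6.14 to 6.42 in epithelium, and the fibulin gene Fbln1 averaged 9.37 against 5.78 to 6.82. All 3 markers were highest in the stromal sort. Expression profiles of the 6 stromal samples correlated at 0.9795 to 0.9889 across genes, and with 3 arrays a group their number limits the precision. Epithelial RNA was also present in it: the luminal keratin Krt8 was at 9.88, 10.51 and 8.52 in the parous and 9.77, 11.09 and 8.44 in the nulliparous samples. Its level thus varied between replicates of 1 history by over 2 log2 units in the nulliparous group, with the groups overlapping.

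Among genes that passed the test, more were lower than higher in parous stroma. In the limma fit, 119 of 19937 genes, 0.597% of those tested, passed an adjusted p of 0.05, of which 21 (0.105%) were higher and 98 (0.492%) lower in parous stroma. The falls were also larger: their median size was 1.09 on the log2 scale and 62 exceeded 1, whereas the median rise was 0.62 and 3 rises exceeded 1. Parous and nulliparous values did not overlap for 113 of the 119 genes, which the test itself favours. Over all genes, the 3 parous values lay above all nulliparous values in 9.59% and below them in 6.33%, and the median difference was 0.03. The excess of lower genes was limited to the calls: 11694 genes had a higher and 8243 a lower parous mean, and at an unadjusted p under 0.05, 961 were higher and 866 lower. Genes measured highest in stroma made up 17 of the 21 rises and 58 of the 98 falls, against 18.3% of all genes. The test may favour such genes, because its spread came from all 12 groups, mostly epithelial ones, where they can vary little.

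The count of calls depended on how the spread was estimated and on 1 sample. Each SE given with a stromal change, and its adjusted p, used the spread within all 12 groups of the series. With the spread taken from the 6 stromal samples alone, 18 genes passed, all lower in parous stroma, and 15 of them were among the 119. Genes lost in that fit included Dio2 (adjusted p = 0.187), Mlana (0.331), C7 (0.172), Ubd (0.157), Kera (0.0972) and Col3a1 (0.307). Without nulliparous replicate 1, 64 genes passed in the full fit, 11 higher and 53 lower, and leaving out any other stromal sample gave 84 to 123. Nulliparous replicate 1 was the highest nulliparous sample for 43 of the 98 falls. There were 40 genes, 7 higher and 33 lower, that passed whichever stromal sample was left out. There were 12 genes, all lower in parous stroma, that passed in every alternative: Krt5, Krt14, Cxcl9, Dsc2, Rasgrp3, Scg3, Cntn1, Lxn, St8sia4, Apoc1, Plk2 and Ppp1r13b.

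**Figure D1:**
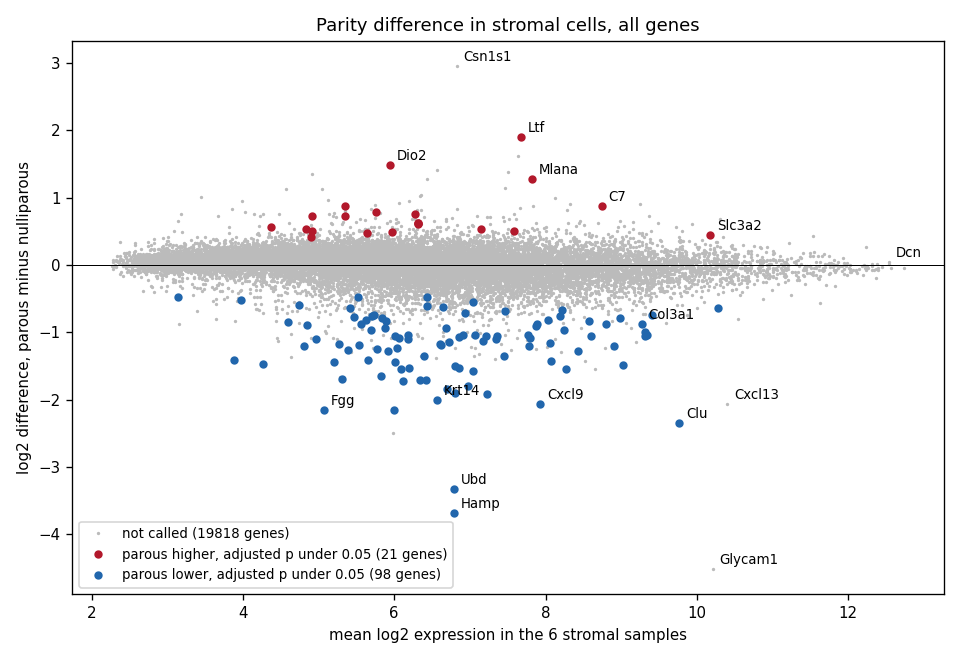
Difference between parous and nulliparous stroma (log2, vertical axis) against mean log2 expression in the 6 stromal samples (horizontal axis), with each point 1 gene. Blue points are the 98 genes lower and red points the 21 genes higher in parous stroma at an adjusted p under 0.05; Glycam1, the lowest point at -4.52, and Csn1s1, the highest at 2.96, are not called.

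The largest rise whose groups did not overlap was that of Dio2, the deiodinase that converts the thyroid prohormone T4 into active T3 within cells. Dio2 was at 7.47, 6.50 and 6.10 in parous and 5.08, 5.38 and 5.18 in nulliparous stroma. Each parous sample exceeded each nulliparous one, by 1.48 ± 0.18 (SE, log2) on average, or 2.78-fold, with an adjusted p of 1.4e-05. In the epithelial subpopulations the Dio2 difference lay between -0.22 and 0.09 and none passed the test. The rise was larger in stroma than in total epithelial cells by 1.66 ± 0.25 (adjusted p = 0.00118) and than in basal CD49f-low cells by 1.70 ± 0.25 (adjusted p = 8.0e-04). The Dio2 call held without any 1 stromal sample and was lost with the stromal samples alone (adjusted p = 0.187).

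Mlana, known as a melanosome protein of pigment cells, was at 9.07, 8.16 and 8.15 in parous and 7.65, 7.40 and 6.49 in nulliparous stroma. The groups did not overlap, and the rise was 1.28 ± 0.21 with an adjusted p of 9.4e-04. The complement component C7, which takes part in forming the membrane attack complex, was at 9.27, 9.0 and 9.27 against 8.67, 8.18 and 8.06. It rose by 0.88 ± 0.13 (adjusted p = 3.3e-04), and its mean was 8.74 in stroma against 4.44 to 4.59 in the epithelial subpopulations. Trhde, the ectoenzyme that degrades thyrotropin-releasing hormone, was at 6.32, 5.39 and 5.67 in parous and 5.23, 4.63 and 4.88 in nulliparous samples. Trhde rose by 0.88 ± 0.15 (adjusted p = 0.0015). Casq1, a calcium-binding protein of the sarcoplasmic reticulum, rose by 0.76 ± 0.14 and the RNA helicase gene Ddx43 by 0.73 ± 0.13. With Dio2 and the unnamed transcript B130024G19Rik, these are the 7 rises that passed with any 1 stromal sample left out.

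Rises named here that depended on single samples included those of the cartilage proteoglycan Epyc (0.72 ± 0.14), the cartilage protein Cilp (0.61 ± 0.12), hemicentin 2 (Hmcn2, 0.53 ± 0.13) and the calcium-binding matrix protein Smoc2 (0.51 ± 0.11). The growth factor gene Bmp5 was at 7.11, 6.32 and 6.44 in parous and 6.03, 6.06 and 5.94 in nulliparous stroma, a rise of 0.62 ± 0.14 (adjusted p = 0.0251). Its groups were separate, but the call was lost without parous replicate 1 (adjusted p = 0.222) and without any 1 nulliparous sample (0.0539 to 0.0992). Calls of the matrix genes also ended when single samples were left out: parous replicate 1 for Epyc (0.103), Hmcn2 (0.295) and Smoc2 (0.0966), parous replicate 2 for Hmcn2 (0.152), Smoc2 (0.0929) and Cilp (0.0739), and nulliparous replicate 1 for Epyc (0.128) and Hmcn2 (0.167). Nulliparous replicate 2 mattered for Hmcn2 (0.0787), and nulliparous replicate 3 for Epyc (0.0514), Hmcn2 (0.133), Smoc2 (0.16) and Cilp (0.0647). Slc3a2, the heavy chain shared by several amino acid transporters, was at 10.22, 10.57 and 10.42 against 9.96, 9.94 and 9.99. It rose by 0.44, and the call was lost without parous replicate 2 (0.0655) and with the stromal samples alone (0.291).

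**Figure D2:**
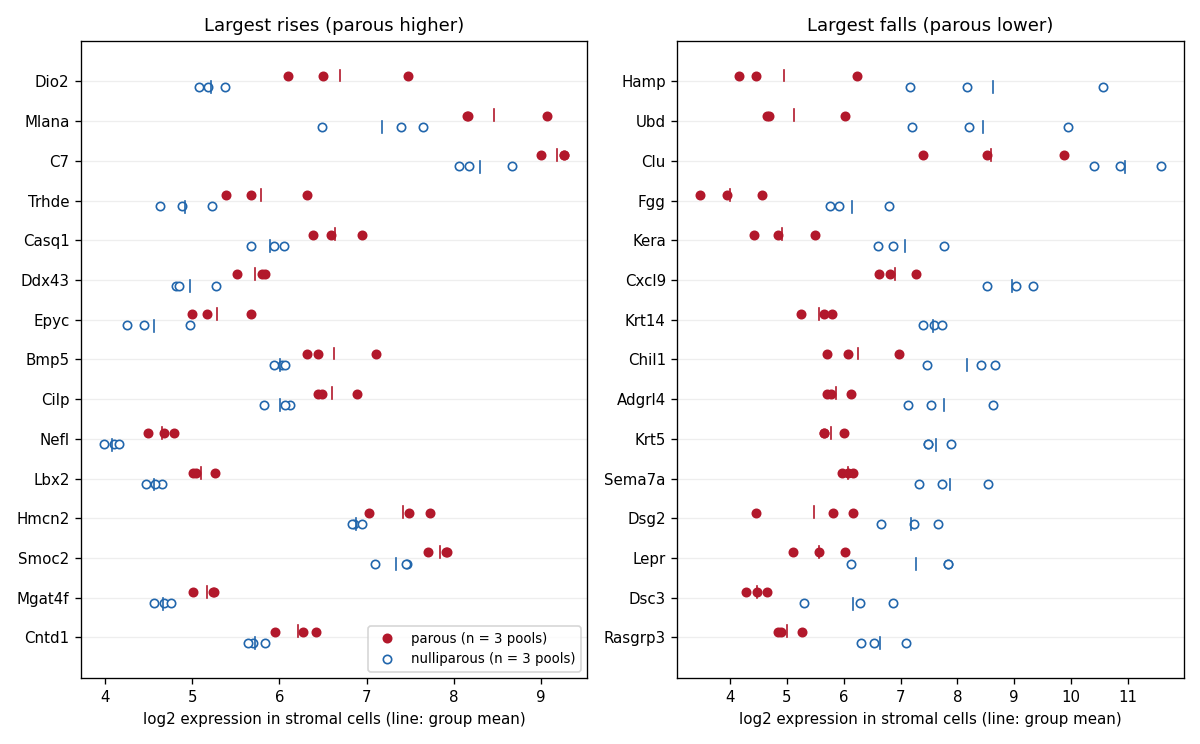
Log2 expression in each of the 6 stromal samples for the 15 largest rises (left) and 15 largest falls (right) among genes whose groups do not overlap, with red filled points for parous and blue open points for nulliparous samples (n = 3 pools each) and short lines at group means. The falls span wider intervals, as for Hamp (4.16 to 6.24 against 7.16 to 10.56), than rises such as Nefl (4.49 to 4.79 against 3.99 to 4.16).

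Among the falls, the pair of keratins that form the filaments of basal epithelial cells stood out for agreement between samples. Krt14 was at 5.80, 5.66 and 5.25 in parous and 7.40, 7.59 and 7.73 in nulliparous stroma. Krt5 was at 5.65, 6.0 and 5.66 against 7.48, 7.49 and 7.88. Both genes separated the groups by over 1 log2 unit, and the falls were 2.00 ± 0.22 for Krt14 (adjusted p = 2.9e-06) and 1.85 ± 0.18 for Krt5 (adjusted p = 5.7e-07), or 3.99-fold and 3.61-fold. Both calls held in every alternative. Even the nulliparous stromal values were far below the mean Krt5 of 11.51 and mean Krt14 of 11.15 in basal CD49f-low cells. In those basal cells the parity difference was 0.09 for Krt5 and -0.03 for Krt14, and the stromal effect minus the basal one was -1.94 ± 0.25 (adjusted p = 2.5e-04) for Krt5 and -1.97 ± 0.31 (adjusted p = 0.00155) for Krt14.

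Genes of desmosomes, the junctions that anchor keratin filaments at cell borders, fell as well. Dsg2, a desmosomal cadherin, was at 5.81, 6.17 and 4.46 in parous and 7.66, 7.24 and 6.66 in nulliparous stroma, and fell by 1.71 (adjusted p = 4.7e-04). The plaque protein gene Dsp was at 6.11, 6.35 and 5.61 against 7.15, 7.70 and 6.80, a fall of 1.19 (adjusted p = 2.0e-04). Dsc2, another desmosomal cadherin, was at 4.85, 4.86 and 4.58 against 5.69, 6.14 and 6.23, a fall of 1.26 (adjusted p = 0.00301). All 3 were separate between groups and passed with any 1 sample left out. The cadherin Dsc3 fell by 1.69 (adjusted p = 0.0437) but passed only when nulliparous replicate 2 was left out; omitting any other stromal sample gave 0.0739 to 0.235. Of 11 desmosome genes measured, a list drawn up after these values were seen, 4 fell, against 0.492% of all genes called lower. The other 7 (Jup, Pkp1, Pkp2, Pkp3, Pkp4, Perp and Dsg3) differed by -0.30 to 0.15. Itga6, which encodes CD49f, the integrin used to split the basal sorts, was at 7.17, 7.68 and 6.69 in parous and 8.54, 8.64 and 7.97 in nulliparous stroma. It fell by 1.20 (adjusted p between 4.6e-06 and 0.00179 over the 6 fits without 1 stromal sample).

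The keratin and desmosome falls were set beside epithelial markers as a whole. In the list of 10 basal epithelial genes, 3 fell (Krt5, Krt14 and Dsc3), none rose, and 6 had all parous values below all nulliparous ones. Over all genes 0.492% were called lower and 6.33% lay all below. The mean of the basal list, which includes the 3 called genes, was 6.08 to 6.24 in parous and 6.78 to 6.90 in nulliparous samples. These did not overlap, and the list's median difference was -0.38 against 0.03 over all genes. In this list 7 genes had a lower and 3 a higher parous mean, against 8243 lower of all 19937 genes. The 3 higher ones, Mylk (0.15), Krt15 (0.20) and the oxytocin receptor Oxtr (0.29), were not called, nor was Trp63 (-0.39). The basal keratin Krt17 was at 5.54, 5.98 and 5.75 against 6.29, 6.44 and 6.67, separate but uncalled (-0.71, adjusted p = 0.0937). None of 12 luminal genes passed, and none had an unadjusted p under 0.05. Of these 12, 10 had a lower parous mean, none was separate between groups, and the median difference was -0.13. The luminal mean was 6.37 to 7.61 in parous and 6.53 to 8.15 in nulliparous samples, and followed the replicates: it was highest in replicate 2 and lowest in replicate 3 of both histories. The part of basal epithelial cells in the keratin falls was not tested.

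**Figure D3:**
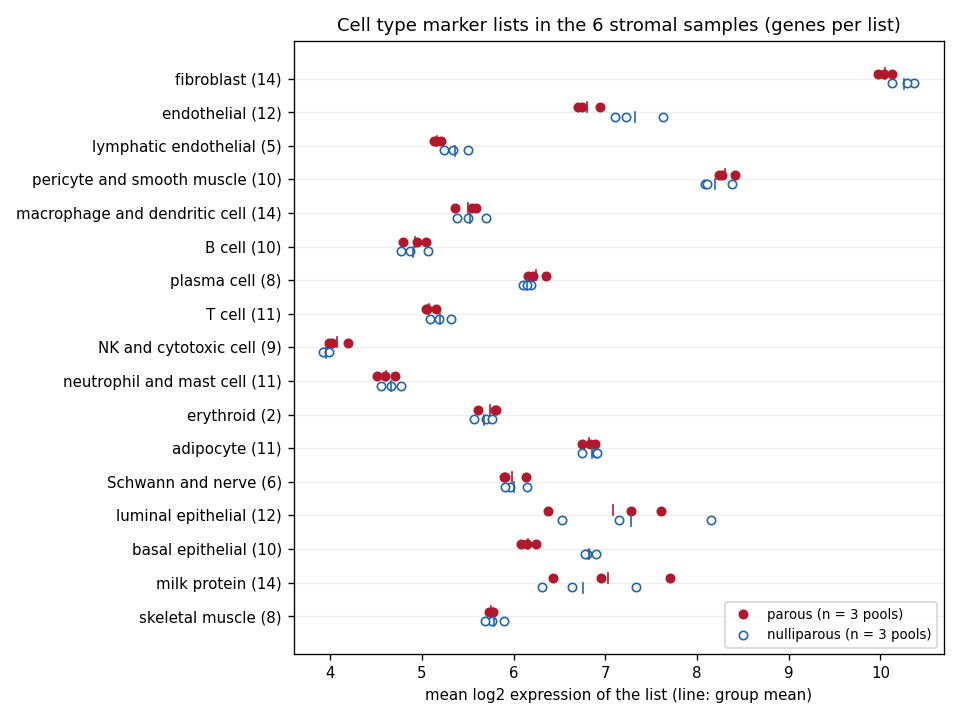
Mean log2 expression of each cell type marker list (number of genes in brackets) in each stromal sample, red filled for parous and blue open for nulliparous, with short lines at group means. The groups separate for the endothelial list (6.70 to 6.94 against 7.10 to 7.63) and the basal epithelial list (6.08 to 6.24 against 6.78 to 6.90), as they do for the lymphatic endothelial list (5.13 to 5.21 against 5.24 to 5.50) and, with parous higher, the NK and cytotoxic list (3.99 to 4.19 against 3.92 to 3.98); the other lists overlap.

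Chemokines, the secreted proteins that direct leukocyte traffic, formed the next group of falls. Of 36 chemokine and cytokine genes measured, 4 fell and none rose; 30 had a lower parous mean, and in 13 all parous values lay below the nulliparous ones. Over all 19937 genes 0.492% were called lower, 8243 had a lower parous mean and 6.33% lay all below. The list's mean was 7.11 to 7.31 in parous and 7.50 to 7.68 in nulliparous samples, and its median difference was -0.21. Cxcl9 and Cxcl10, interferon-gamma-inducible ligands of Cxcr3, a chemokine receptor on T cells, both fell. Ubd, a ubiquitin-like modifier induced by interferon-gamma and tumour necrosis factor, had the largest called fall after Hamp. The RefSeq promoter table (build GRCm38.p6) held 5 of 9 genes of this group that were looked up. Tnfaip3, the remaining gene found, also fell, and its windows are not shown. Promoters of the 3 inducible genes and of Ccl19, the ligand of the lymphocyte homing receptor Ccr7, are shown. Each is the 250 bases before the annotated start, 5′ to 3′ on the gene's strand, with capitals marking matches to the interferon-stimulated response element (GAAA, any 2 bases, then GAAA) or the NF-kB motif.
Cxcl9, chr5:92328080-92328329, minus strand: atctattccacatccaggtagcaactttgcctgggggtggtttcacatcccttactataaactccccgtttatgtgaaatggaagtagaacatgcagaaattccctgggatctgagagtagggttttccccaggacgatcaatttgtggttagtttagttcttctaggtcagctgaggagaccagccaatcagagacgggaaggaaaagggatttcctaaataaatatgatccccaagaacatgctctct
Cxcl10, chr5:92348890-92349139, minus strand: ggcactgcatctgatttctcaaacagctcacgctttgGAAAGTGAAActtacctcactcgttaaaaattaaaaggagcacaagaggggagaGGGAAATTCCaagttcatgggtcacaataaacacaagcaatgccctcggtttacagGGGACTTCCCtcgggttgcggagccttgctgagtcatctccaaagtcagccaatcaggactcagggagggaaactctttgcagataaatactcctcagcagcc
Ubd, chr17:37193642-37193891, plus strand: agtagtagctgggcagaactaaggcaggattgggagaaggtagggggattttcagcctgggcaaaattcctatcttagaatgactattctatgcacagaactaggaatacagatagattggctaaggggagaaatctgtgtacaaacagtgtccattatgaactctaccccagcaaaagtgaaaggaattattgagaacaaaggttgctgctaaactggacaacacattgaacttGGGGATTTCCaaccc
Ccl19, chr4:42756366-42756615, minus strand: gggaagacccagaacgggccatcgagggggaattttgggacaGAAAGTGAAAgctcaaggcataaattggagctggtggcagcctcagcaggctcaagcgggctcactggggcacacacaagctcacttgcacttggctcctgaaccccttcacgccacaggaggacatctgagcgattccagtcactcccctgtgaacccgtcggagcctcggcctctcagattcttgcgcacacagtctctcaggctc

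The response element was found in the Cxcl10 and Ccl19 windows, in the same 10 letters, and in 2.98% of all 32851 windows of this length in the table. The NF-kB motif occurred 2 times before Cxcl10 and once before Ubd, and in 3.9% of all windows. Tnfaip3, not shown, had a window with 2 NF-kB matches and another with 0. The gamma-activated site (TTCNNNGAA) was in none of the 4 windows and in 7.02% of all. Both strands were searched, and no match of one motif overlapped a match of another in these windows. The matches describe the letters and do not show that a factor was bound.

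The Cxcl9 values were 6.63, 6.82 and 7.27 in parous and 9.34, 8.52 and 9.03 in nulliparous stroma. The highest parous value was over 1 log2 unit below the lowest nulliparous one, and the fall of 2.06 ± 0.26, or 4.17-fold (adjusted p = 2.2e-05), passed in every alternative. Cxcl10 was at 8.26, 8.02 and 7.94 against 9.01, 9.08 and 9.28, a fall of 1.05 ± 0.20 (adjusted p = 0.0069; 0.0509 without parous replicate 3). Ubd was at 4.69, 6.03 and 4.65 in parous and 9.94, 8.21 and 7.21 in nulliparous stroma. Its groups lay over 1 log2 unit apart and its fall was 3.33 ± 0.47, or 10.1-fold (adjusted p = 1.4e-04); it passed with any 1 sample left out. Ccl19 was at 7.97, 8.84 and 8.03 against 9.92, 9.13 and 10.28, and fell by 1.49 ± 0.28 (adjusted p = 0.00501; 0.0514 without nulliparous replicate 3). Ccl19 had 4 probe sets, and with their mean it did not pass (adjusted p = 0.0789). Cxcl5, a ligand of the neutrophil receptor Cxcr2, fell by 1.06 ± 0.22, with an adjusted p of 0.109 without parous replicate 1 and 0.141 without nulliparous replicate 2.

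Cxcl13, the ligand of Cxcr5, a chemokine receptor on B cells, showed a difference as large as that of Cxcl9 but was not called. It was at 9.20, 9.78 and 9.09 in parous and 11.54, 11.22 and 11.54 in nulliparous stroma, so that the groups were separate. The difference was -2.07 ± 0.90 (adjusted p = 0.465), with an SE estimated from the spread within all 12 groups of the series. Il33, an alarm cytokine, was also separate and uncalled, at 8.31 to 8.91 in parous and 9.41 to 9.62 in nulliparous samples, a difference of -0.87 (adjusted p = 0.539). Cxcl12, a fibroblast chemokine, was at 8.46, 8.13 and 8.42 against 9.17, 8.64 and 9.10 and was not called (-0.63, adjusted p = 0.287), while its receptor Cxcr4 fell by 0.97. The Cxcr4 call was lost without parous replicate 3 (0.088) and nulliparous replicate 1 (0.0837). Among the guanylate-binding proteins, interferon-inducible GTPases, Gbp9 (1.05) and Gbp4 (1.35) fell of 8 measured, against 0.492% of all genes called lower. Without nulliparous replicate 1 their adjusted p-values were 0.112 and 0.198; Gbp9 was also lost without parous replicate 3 (0.0509), and Gbp4 without parous replicates 1 (0.0602) and 2 (0.0945).

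The wider interferon and antigen presentation lists held no call by limma. None of 19 interferon response genes passed, with 2 at an unadjusted p under 0.05, both lower, and a median difference of -0.22. None of 12 genes of the MHC class II list passed, with 5 at an unadjusted p under 0.05, all lower. In this list, which also holds other antigen presentation genes, H2-Aa (5.62, 6.76 and 5.95 against 7.62, 7.29 and 6.82) and Ctss (6.82, 7.03 and 7.0 against 8.22, 7.64 and 8.11) were separate between groups. No leukocyte list held a call: the B-cell list averaged 4.77 to 5.06, the T-cell list 5.04 to 5.32 and the macrophage and dendritic cell list 5.36 to 5.70 over the 6 samples, with overlap in each. In these 3 lists the median differences were 0.07, 0.02 and 0.02, limma called no gene, and 0, 3 and 0 genes had an unadjusted p under 0.05. The pan-leukocyte gene Ptprc was at 5.26, 5.58 and 5.36 against 6.63, 5.79 and 5.83, separate but uncalled (-0.68, adjusted p = 0.537). Outside these lists, genes known from leukocytes were called lower, among them Lcp1 (-1.73), Spic (-1.47), Csf2rb (-1.35), Gimap4 (-1.18) and Klhl6 (-0.75). Of these, only Spic passed with any 1 stromal sample left out. The NK and cytotoxic list went the other way, with 8 of 9 genes higher on average, 4 of them separate, 2 at an unadjusted p under 0.05 and a median difference of 0.11. Over all 19937 genes, 11694 had a higher parous mean, 9.59% were separate upward and 9.16% had an unadjusted p under 0.05. The list averaged only 3.92 to 4.19, below the stromal column medians of 5.84 to 5.90. A pair of complement genes moved in opposite directions: C7 rose, and Cfb, factor B of the alternative pathway, was at 8.17, 9.21 and 8.99 against 10.28, 9.57 and 9.69. Cfb fell by 1.06 (adjusted p = 0.0138), a call lost without parous replicate 1 (0.151) or nulliparous replicate 1 (0.172). The other 15 complement genes were not called. Tnfaip3, an inhibitor of NF-kB signalling, fell by 0.83, and was not called without parous replicate 3 (0.0823) or nulliparous replicate 1 (0.0532).

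**Figure D4:**
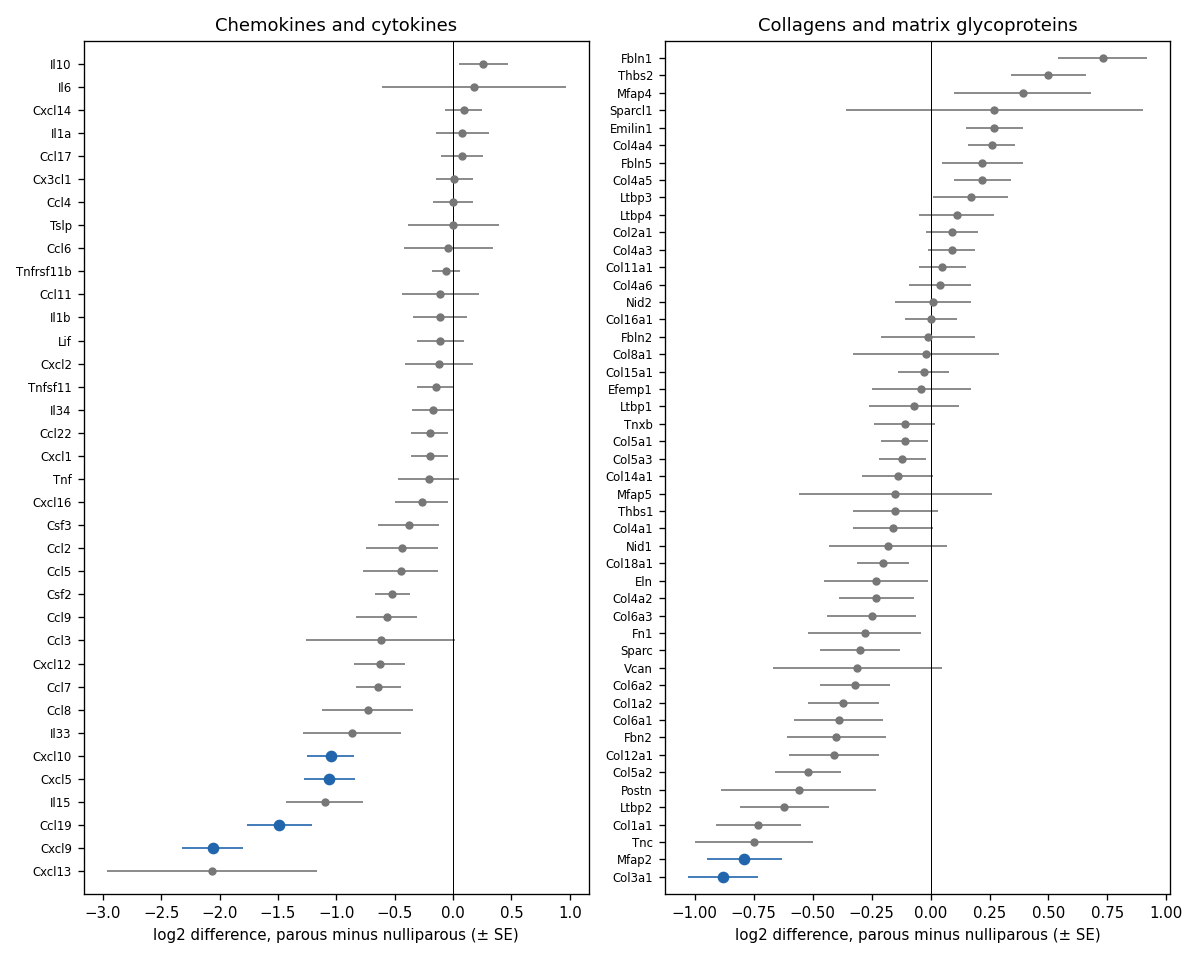
Difference between parous and nulliparous stroma (log2, ± SE from the fit) for each measured chemokine and cytokine gene (left) and each collagen and matrix glycoprotein gene (right); blue points are lower in parous stroma at an adjusted p under 0.05 and grey points are not called. Called chemokines are Cxcl9, Ccl19, Cxcl5 and Cxcl10, and called matrix genes are Col3a1 and Mfap2; the wide bar at Cxcl13 is its SE of 0.90.

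The endothelial marker list held 1 called gene. Pecam1, an adhesion molecule of endothelial cells, was at 7.55, 7.59 and 7.35 in parous and 9.68, 8.76 and 8.71 in nulliparous stroma. The groups were separate and the fall was 1.55 ± 0.36 (adjusted p = 0.0329), but the call was lost without nulliparous replicate 1 (0.255) and without any 1 parous sample (0.0739 to 0.121). Cdh5, the cadherin of endothelial junctions, was at 8.19, 7.76 and 7.69 against 9.92, 9.27 and 9.11 and was not called (-1.55, adjusted p = 0.235). Of the 12 endothelial genes 1 fell, against 0.492% of all genes, 9 had a lower parous mean, and 6 had an unadjusted p under 0.05, all lower, against 9.16% of all genes in either direction. None of 5 lymphatic endothelial or 10 pericyte and smooth muscle genes passed by limma, with 0 and 3 at an unadjusted p under 0.05, and their median differences were -0.24 and 0.11. Robo4, Eng and Kdr differed by -0.31 to -0.53, whereas Cldn5, Esam and Vwf differed by 0.00 to 0.07. The endothelial receptor Adgrl4 was at 6.13, 5.77 and 5.70 in parous and 8.63, 7.53 and 7.13 in nulliparous samples. It fell by 1.90 ± 0.40 (adjusted p = 0.014), with 0.179 without nulliparous replicate 1, 0.0588 without parous replicate 2 and 0.0717 without parous replicate 3. The endothelial genes Myct1 (-1.28) and Sox18 (-0.63), also outside the list, were called lower. Each passed in 2 of the 6 fits without 1 stromal sample. Rasgrp3, an exchange factor for Ras in endothelial and B cells, was at 5.26, 4.89 and 4.84 against 7.09, 6.31 and 6.53, a fall of 1.65 that passed in every alternative. Nulliparous replicate 1 had the highest endothelial list mean, 7.63. The part of vessel cells in these falls was not tested.

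Several falling genes are known from lymph node stroma and high endothelial venules, the vessels through which lymphocytes enter nodes. The labels do not say whether the node within the 4th gland was removed. A list of 21 such genes was drawn up after the values were seen, so its counts only describe it. Its mean was 6.65, 7.34 and 6.66 in parous and 8.29, 7.73 and 7.78 in nulliparous stroma. Of the 21 genes, 19 had a lower parous mean, and 6 were called lower (Ccl19, Bst1, Clu, Gcnt1, Ubd and Ch25h). Over all 19937 genes, 8243 had a lower parous mean and 0.492% were called lower. Glycam1, a mucin of these venules and also a milk protein, was at 5.90, 11.63 and 6.32 in parous and 12.75, 12.36 and 12.31 in nulliparous stroma. Parous replicate 2 was thus near the nulliparous level, and the difference of -4.52 ± 1.78 was not called (adjusted p = 0.386). Clusterin (Clu), a secreted chaperone made by many cells, was at 8.52, 9.88 and 7.39 against 11.58, 10.41 and 10.87. It fell by 2.35 ± 0.43 (adjusted p = 0.00403), with an adjusted p of 0.0546 without parous replicate 3 and again without nulliparous replicate 1. Clu averaged 9.77 in stroma and 8.81 to 10.80 in the epithelial sorts, highest in luminal Sca1- cells, and Bst1 was highest in basal CD49f-high cells. The part of epithelial RNA in these 2 falls was not tested. The list members Cr2 and Madcam1 differed by -0.06 and -0.26, with all values of both between 4.02 and 5.42. Cxcl13, also in the list, differed by -2.07 and was separate but uncalled (adjusted p = 0.465). The part of lymph node cells in these falls was not tested.

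Of 14 fibroblast marker genes 1 fell and none rose, and the median difference was -0.21. In this list 7 were separate downward and 1 upward, and 5 were lower and 1 higher at an unadjusted p under 0.05. Over all genes, 0.492% were called lower, 6.33% were separate downward and 9.59% upward, and 9.16% had an unadjusted p under 0.05. Col3a1, the fibrillar collagen of loose connective tissue, was at 8.90, 8.59 and 9.0 in parous and 9.22, 10.11 and 9.78 in nulliparous stroma. The groups were separate, and the fall of 0.88 ± 0.15, or 1.84-fold (adjusted p = 0.00201), passed with any 1 sample left out (up to 0.0257). Col1a1, the main chain of type I collagen, was at 8.36, 8.45 and 8.59 against 8.69, 9.83 and 9.08 and did not pass (-0.73 ± 0.18, adjusted p = 0.056). Col1a1 did pass without nulliparous replicate 1 (-0.99, adjusted p = 0.00282), without a trend (0.0475), with the floor of 5 log2 units (0.0463) and with replicate number as a block (0.0484). Its separation was smallest for nulliparous replicate 1. Of 23 collagen genes 1 fell and none rose; 16 had a lower parous mean, 5 were separate in that direction, and the median difference was -0.14. Type IV collagens of basement membrane differed by -0.23 to 0.26 and none was called.

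Mfap2, a microfibril protein, was at 8.29, 8.95 and 8.54 in parous and 9.32, 9.67 and 9.15 in nulliparous stroma. It fell by 0.79 ± 0.16 (adjusted p = 0.00822), a call that ended on omitting parous replicate 1 (0.088) or nulliparous replicate 2 (0.0888). Mfap2 was the only call among 25 elastic fibre and glycoprotein genes. Of these, 9 were separate downward and 4 upward, against 6.33% and 9.59% of all genes. The wound-associated proteins Tnc (7.93, 7.80 and 7.69 against 8.50, 8.60 and 8.58) and Postn (11.42, 11.31 and 11.31 against 11.88, 12.07 and 11.77) were lower in every parous sample but were not called (adjusted p = 0.242 and 0.668). Fbln1 went the other way, at 9.81, 9.76 and 9.63 against 9.01, 8.87 and 9.13, a difference of 0.73 ± 0.19 with an adjusted p of 0.0723, which passed with array weights (0.0214) and with quantile normalization (0.0328). The Fbln1 parity difference was nevertheless higher in stroma than in total epithelial cells, by 1.29 ± 0.26 (adjusted p = 0.023), where it was -0.56. That difference was not called without parous replicate 1 or 2 or nulliparous replicate 1 or 2 (up to 0.0684).

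Among the small leucine-rich proteoglycans, which organise collagen fibrils, Kera and Epyc changed and the abundant members did not pass. Keratocan (Kera), best known from cornea, was at 4.84, 4.42 and 5.50 in parous and 6.60, 7.77 and 6.86 in nulliparous stroma. The fall of 2.15 ± 0.21, or 4.45-fold (adjusted p = 5.7e-07), passed with any 1 sample left out, and the Kera difference in the 5 epithelial subpopulations lay between -0.04 and 0.20. Lum and Bgn differed by 0.01 and 0.19, and the fibroblast receptor gene Pdgfra by 0.05. Of 25 matrix proteases and inhibitors none passed by limma, with 5 at an unadjusted p under 0.05, all lower. The stromelysin gene Mmp3 was at 10.22, 10.40 and 10.37 against 10.12, 10.62 and 9.70, while Timp1, a protease inhibitor, differed by -0.64 (adjusted p = 0.443) and Mmp2 was at 11.06, 11.28 and 11.09 against 11.17, 11.36 and 11.11. None of 17 collagen processing genes passed or had an unadjusted p under 0.05. Other matrix and adhesion genes fell in every fit without 1 sample: Lrrc15 by 1.04, Frem1 by 1.17, Ccn3 by 1.07 and the focal adhesion gene Tes by 1.04. Tes averaged 6.91 in stroma and 9.22 to 10.38 in the epithelial sorts, and the part of epithelial RNA in its fall was not tested.

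The remaining large falls were of secreted and signalling proteins. Hamp, the iron-regulating hormone hepcidin, had the largest fall, at 4.46, 6.24 and 4.16 in parous and 10.56, 8.17 and 7.16 in nulliparous stroma. The nulliparous values span over 3 log2 units, and the fall of 3.68 ± 0.80, or 12.8-fold (adjusted p = 0.0184), was lost without nulliparous replicate 1 (0.217), parous replicate 1 (0.0966) or parous replicate 3 (0.115). Fgg, the fibrinogen gamma chain, was at 4.57, 3.94 and 3.48 against 5.91, 6.79 and 5.76, a fall of 2.16 ± 0.25 (adjusted p = 7.3e-06) that held in all 6 such fits. Fgg also fell in basal CD49f-high cells, by 2.15 (adjusted p = 1.6e-05). Its mean was 5.07 in stroma against 8.32 to 10.79 in the epithelial sorts. The part of epithelial RNA in the Fgg fall was not tested. The semaphorin gene Sema7a was at 5.97, 6.17 and 6.07 against 8.54, 7.73 and 7.32 and fell by 1.80 ± 0.26 (adjusted p = 1.7e-04), with parous values close together. The leptin receptor Lepr fell by 1.71 ± 0.33, with 7.83, 6.13 and 7.84 in nulliparous samples and no parous value above 6.02. Nulliparous replicate 2 was close to the parous range, and the call was lost without parous replicate 3 (0.0723), nulliparous replicate 1 (0.0981) or nulliparous replicate 3 (0.07). Chil1, a chitinase-like secreted protein, fell by 1.92 ± 0.36 (adjusted p = 0.005, and 0.0548 without parous replicate 3). The Chil1 mean was 7.22 in stroma, 6.28 in luminal Sca1+ cells and 9.27 to 10.82 in the other epithelial sorts. Here too the part of epithelial RNA was not tested.

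Scg3, Cntn1 and St8sia4 were among the 12 genes that passed in every alternative. The granule protein Scg3 was at 7.38, 7.46 and 7.59 in parous and 8.57, 8.75 and 8.58 in nulliparous stroma. The adhesion molecule Cntn1 was at 4.84, 5.22 and 5.36 against 6.40, 6.28 and 6.50. St8sia4, which builds polysialic acid chains, was at 4.39, 4.70 and 4.35 against 6.33, 5.79 and 5.63. In each the groups lay over 0.9 log2 units apart, and the falls were 1.16, 1.25 and 1.44. The protease inhibitor genes Slpi (7.41, 7.87 and 6.79 against 8.65, 8.97 and 8.73), Lxn and Serpinb9, singled out after their values were seen, fell by 1.43, 1.55 and 1.44 and passed with any 1 sample left out. Slpi averaged 8.07 in stroma and 9.92 to 11.48 in the epithelial sorts, and the part of epithelial RNA in its fall was not tested. Other serpins that fell (Serpinb1a, Serpinb5, Serpina10 and Serpina1c) were each lost without nulliparous replicate 1 (0.0567 to 0.372). For Serpinb1a, parous replicate 2 (0.0519) also mattered, for Serpinb5 parous replicate 3 (0.291) and nulliparous replicate 2 (0.366), for Serpina1c parous replicates 1 (0.177) and 3 (0.208), and for Serpina10 parous replicates 1 (0.098) and 3 (0.0812) and nulliparous replicate 3 (0.0884). Members of such gene families have similar sequences, and probe sets may not separate them.

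Few signals by which stroma acts on epithelium passed the test. Of 23 growth factor genes, Ptn, a heparin-binding mitogen, fell by 1.20 ± 0.28 (adjusted p = 0.0403), with values of 8.90, 8.72 and 7.29 against 9.84, 10.10 and 8.57. Its groups overlapped, and the call ended without parous replicate 3 (0.279), nulliparous replicate 1 (0.231) or nulliparous replicate 2 (0.313). The mean Ptn level was lower in stroma, 8.90, than in the 5 epithelial sorts, 10.85 to 12.09, and the part of epithelial RNA in its fall was not tested. The epithelial growth factors Igf1 (9.31, 9.45 and 9.28 against 9.41, 9.35 and 9.52), Hgf (7.64, 7.37 and 7.29 against 7.96, 8.03 and 7.04) and Fgf7 (9.93, 9.95 and 10.12 against 9.45, 10.15 and 9.35) overlapped between groups. Fgf2 (0.25), Tgfb1 (0.01), Tgfb2 (0.20), Wnt2 (-0.16) and Wnt5a (0.03) also overlapped. Fgf10 was lower by 0.67 on average without passing (adjusted p = 0.12), but passed without parous replicate 3 (0.0297) and without nulliparous replicate 2 (0.00462). Csf1, the macrophage growth factor, was at 10.52, 10.40 and 10.36 against 10.15, 10.14 and 9.97, a separate but uncalled difference of 0.34 (adjusted p = 0.68). None of 14 hormone receptor genes passed or had an unadjusted p under 0.05; Esr1 differed by -0.06, Ghr by 0.05 and Pgr by 0.51 ± 0.27.

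No gene of the Wnt (38), IGF (20), Hedgehog (13), Notch (17), adipogenic (19), replication and mitosis (29), immediate early (24) or circadian (17) lists passed by limma. At an unadjusted p under 0.05 they held 2, 2, 2, 2, 0, 1, 1 and 2 genes, against 9.16% of all genes. Their median differences were 0.02, -0.05, 0.05, -0.02, 0.07, -0.05, -0.08 and 0.15. Separate downward were 8 of the 29 replication and mitosis genes and 5 of the 24 immediate early genes, against 6.33% of all genes. Of the 17 clock genes 13 had a higher parous mean and 4 were separate, Cry2 (7.04, 7.18 and 7.21 against 6.55, 6.65 and 6.84) and Per3 by the most. Of 34 TGF-beta and BMP genes Bmp5 alone was called, and of 32 HOX and positional genes only the mesodermal homeobox gene Meox1, which fell by 0.79 (adjusted p = 0.00479; 0.0622 without nulliparous replicate 1).

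Of 14 milk protein genes 1 rose and none fell; 10 had a higher parous mean, 2 were separate upward (Csn1s2a and Btn1a1) and 2 downward (Glycam1 and Mfge8), and the median difference was 0.21. At an unadjusted p under 0.05, 4 were higher and 2 lower. Over all genes, 0.105% were called higher, 9.59% were separate upward and 6.33% downward, and 9.16% had an unadjusted p under 0.05. Ltf, the iron-binding milk and defence protein lactoferrin, was at 8.62, 9.69 and 7.58 in parous and 6.71, 7.62 and 5.87 in nulliparous stroma. Nulliparous replicate 2 lay above parous replicate 3, so the groups overlapped. Its rise of 1.90 ± 0.45, or 3.72-fold (adjusted p = 0.0398), was lost without parous replicates 1 (0.102) or 2 (0.273) and without nulliparous replicates 1 (0.143) or 3 (0.229). The caseins Csn1s1 (8.70, 9.43 and 6.82 against 3.67, 8.47 and 3.92) and Csn1s2a (5.98, 6.10 and 4.77 against 4.37, 4.66 and 4.43) were higher on average by 2.96 and 1.13 and were not called (adjusted p = 0.15 and 0.294). Csn1s2a rose in all 5 epithelial subpopulations, by 2.05 to 4.36. Csn2 was at 8.30, 8.84 and 6.96 against 5.64, 8.94 and 6.10, with overlap. The luminal list mean was likewise highest in replicate 2 of both histories, and its part in the milk protein values was not tested.

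The stromal falls and rises were then read in the epithelial sorts, whose parity contrasts use other arrays. The shares of all genes called there were 0.446% in total epithelial, 1.00% in luminal Sca1-, 0.607% in luminal Sca1+, 0.968% in basal CD49f-low and 9.06% in basal CD49f-high cells. The basal CD49f-high sort had 2 parous and 3 nulliparous arrays with RNA of 2000 cells each. The other sorts had 3 arrays per history and 10000 cells each. Of the 21 stromal rises only Ltf was called in another sort, the basal CD49f-high one, where it rose by 3.69. Of the 98 stromal falls 0, 2, 3, 3 and 11 were called in those 5 sorts in turn. The directions were mixed: 6 of the 11 in basal CD49f-high cells also fell (Dsc2, Dsc3, Dsg2 and Fgg among them), as did all 3 in basal CD49f-low cells (Apoc1, Dsc2 and Sh3bgrl3). None of those in the luminal sorts fell: Krt5 rose by 1.30 in luminal Sca1- cells (adjusted p = 8.6e-05) and Krt14 by 1.54 in luminal Sca1+ cells (adjusted p = 1.1e-04).

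**Figure D5:**
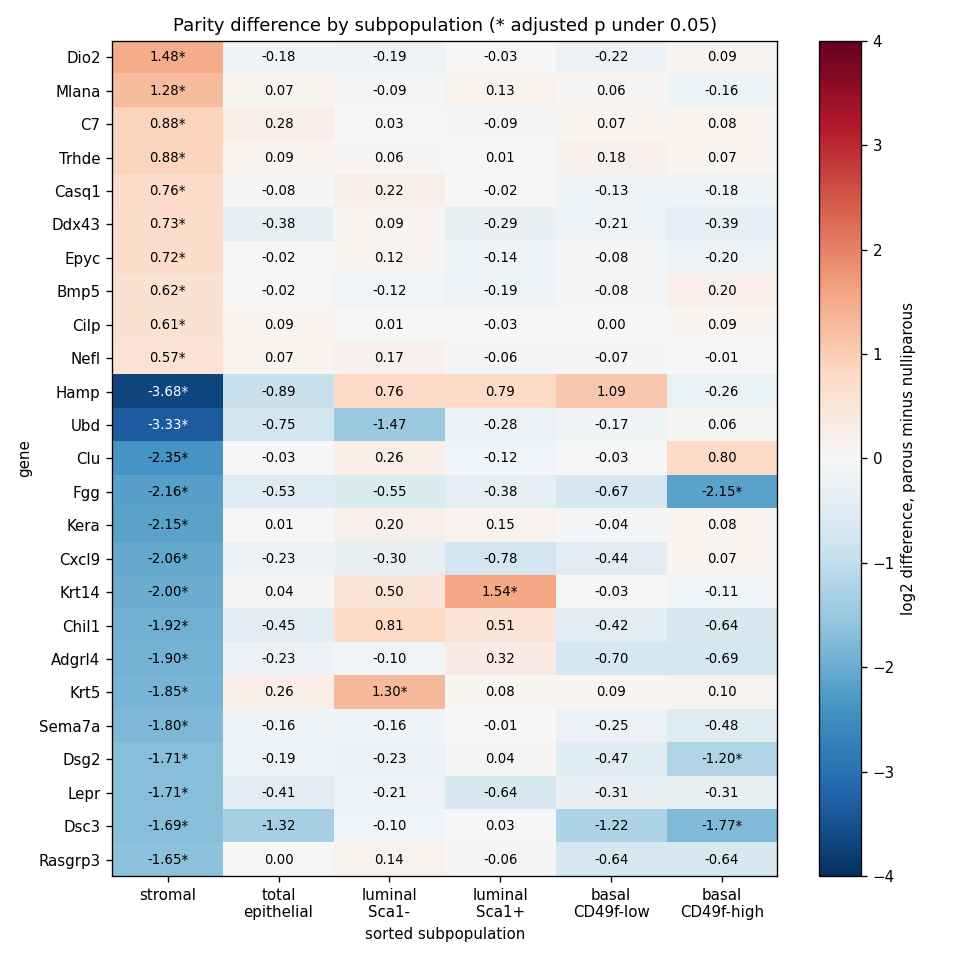
Difference between parous and nulliparous samples (log2, colour and number) for the 10 largest rises and 15 largest falls of stroma whose groups do not overlap, in rows, across the 6 sorted subpopulations, in columns; an asterisk marks an adjusted p under 0.05 within that subpopulation. Asterisks outside the stromal column are at Fgg, Dsg2 and Dsc3 in basal CD49f-high cells, Krt14 in luminal Sca1+ cells and Krt5 in luminal Sca1- cells.

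The difference between parity effects was tested directly against 2 sorts. Stroma and total epithelial cells differed for 33 genes (0.166%), 8 with the higher effect in stroma, and stroma and basal CD49f-low cells for 48 (0.241%), 18 of them higher. Leaving out nulliparous replicate 1 gave 26 and 30 genes. Krt5, Krt14, Kera and Dio2 differed in both comparisons through their change in stroma, and all 4 passed in both with any 1 stromal sample left out.

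A further set differed where epithelium changed and stroma did not pass. Krt15, a basal keratin, was at 5.97, 6.33 and 5.79 in parous and 5.67, 6.08 and 5.75 in nulliparous stroma, while it fell by 2.13 in total epithelial and 2.21 in basal CD49f-low cells. The effects differed by 2.32 ± 0.44 (adjusted p = 0.012) and 2.41 ± 0.44 (adjusted p = 0.0123). Pappa, a protease that frees insulin-like growth factors from their binding proteins, was at 6.59, 6.23 and 6.23 against 6.36, 6.18 and 6.22 in stroma while it fell by 1.91 in total epithelial cells and fell by 2.11 in basal CD49f-low cells. Its effects differed by 2.01 ± 0.41 from total epithelial cells, lost without parous replicate 1 or nulliparous replicates 1 or 2 (up to 0.0702), and by 2.21 ± 0.41 from basal CD49f-low cells. Frmpd4 and Nrcam rose in both sorts, by 1.46 to 2.28, and differed by 0.02 and -0.21 in stroma. The adipogenesis-associated gene Medag had its highest mean in stroma, 9.21, where it was at 9.10, 9.08 and 9.56 against 9.13, 9.11 and 9.27, and it rose by 1.60 in total epithelial and 2.06 in basal CD49f-low cells. Medag fell by 0.67 in basal CD49f-high cells (adjusted p = 0.0446) and was not called in the luminal sorts (0.22 and 0.14). Itih2 (5.22 to 5.59 over the 6 stromal samples) fell by 1.99 in total epithelial cells and Hepacam2 (4.07 to 4.37) rose there by 2.26.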

How the data were processed

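RNA of sorted cells was amplified and hybridised to 1-colour Affymetrix arrays, per the labels' protocols. The authors deposited 1 table of log2 values, 34760 probe sets by 35 samples; the submitters' processing notes name affy, and the normalization is not given in the sources used here. Column medians of the stromal samples were 5.84 to 5.90. Of the probe sets, 21640 had 1 gene symbol, 1321 several and 11799 none; the probe set with the highest mean stood for each of 19937 genes. Group means of all 12 groups were fitted with limma 3.58.1 in R 4.3.3 (lmFit, eBayes with trend), with Benjamini-Hochberg adjustment over all genes and a threshold of 0.05. The procedure was tested on simulated data. The members, 38 gene lists and tests were chosen with earlier results of these data known, and 4 further lists after values were seen; lists are described by counts and medians. Named genes were the 15 largest non-overlapping calls in each direction, up to 4 called members per list and direction, a fixed panel, and the 10 largest differences from other sorts in each direction; other genes were singled out after their values were seen. Alternatives were no trend, array weights, quantile normalization, a floor of 5 log2 units, mean probe sets, stromal samples alone, replicate number or pool as a block, and leaving out each stromal sample. The panel gene Prlr was not analysed here.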

Additional observations from a re-analysis of the deposited data

Results flagged for a closer look

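These genes had parity effects that differed between stroma and another sorted subpopulation in limma's test of the difference itself; each value is the log2 effect in stroma minus that in the other cells. Against total epithelial cells, the stromal effect was higher for Krt15 (2.32), Itih2 (2.04), Pappa (2.01), Dio2 (1.66), Slc7a5 (1.55), Crispld2 (1.49), Fbln1 (1.29) and Ddx43 (1.11). It was lower for Hepacam2 (-2.31), Kera (-2.17), Krt5 (-2.11), Krt14 (-2.04), Frmpd4 (-2.03), Serpinb6b (-2.01), Serpinb9 (-1.92), Cxcl9 (-1.83), Pgm5 (-1.75), Nrcam (-1.67) and Medag (-1.53). Of these 19, 11 passed with any 1 stromal sample left out. Cxcl9 and Serpinb6b were lost without parous replicate 1 or nulliparous replicate 1 (up to 0.0726 and 0.0612), and Itih2, Serpinb9 and Slc7a5 without nulliparous replicate 1 (0.0502, 0.0504 and 0.0502). Pgm5 was lost without parous replicate 3 or nulliparous replicate 2 (up to 0.0901), Pappa without parous replicate 1 or nulliparous replicate 1 or 2 (up to 0.0702), and Fbln1 without parous replicate 1 or 2 or nulliparous replicate 1 or 2 (up to 0.0684).

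Against basal CD49f-low cells, the stromal effect was higher for Krt15 (2.41), Pappa (2.21), St8sia6 (1.92), Crispld2 (1.84), Dio2 (1.70), Sorcs1 (1.58), Aard (1.45), Fbln2 (1.36), Abat (1.30), Fbln1 (1.23), Ddx43 (0.94) and Casq1 (0.88). It was lower for Ubd (-3.17), Frmpd4 (-2.26), Kera (-2.11), Medag (-1.99), Krt14 (-1.97), Krt5 (-1.94), Serpinb6b (-1.87), Nrcam (-1.73), Cd109 (-1.72) and Spic (-1.69). Of these 22, 12 passed with any 1 stromal sample left out. Sorcs1 was lost without any 1 of the 6 (up to 0.113), Ubd without parous replicate 1 or 3 or nulliparous replicate 1 (up to 0.0996), and Serpinb6b without parous replicate 1 or nulliparous replicate 1 or 3 (up to 0.106). Fbln1 and Fbln2 each passed in 1 of the 6 fits (up to 0.0836 and 0.0778) and Casq1 in 2 (up to 0.138). Cd109 was lost without parous replicate 1 or 2 or nulliparous replicate 2 (up to 0.0836), St8sia6 without parous replicate 3 or nulliparous replicate 2 or 3 (up to 0.0778), Aard without parous replicate 1 or nulliparous replicate 1 (up to 0.0745) and Ddx43 without nulliparous replicate 1 (0.0587). Several of these genes changed in epithelium rather than stroma, and no cause was tested.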

How the results depend on the processing

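No named gene changed direction under any alternative run. The stromal count of 119 became 18 with the stromal samples alone, a fit with fewer samples, and 64 to 123 when single stromal samples were left out, lowest without nulliparous replicate 1. The 33 differences from total epithelial cells became 74 with array weights and 26 to 48 with single stromal samples left out. The 48 differences from basal CD49f-low cells became 126 with array weights, 74 with the pool as a random block, and 30 to 54 with single stromal samples left out, lowest without nulliparous replicate 1. The cause of the changes with weights and pool was not tested. With replicate number as a block the 3 counts were 146, 43 and 72, and the block changed 1 named call, Col1a1 (adjusted p = 0.0484). The labels do not state that numbers pair samples: deviations of same-numbered parous and nulliparous stromal samples correlated at 0.068, 0.131 and 0.225, so not every pair exceeded 0.1, although each sample correlated best with its own number, a hint from the data only. Signal over background was not analysed here, and 3 pools a group limit what can be called.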
